A study of Mus musculus with 11 samples.

Results

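Potassium channels set the resting potential of a neuron, end its action potentials and decide how soon it can fire again. In the mouse the genes of their subunits carry symbols that begin with Kcn. Every row with such a symbol was taken from the count tables of 11 hippocampus libraries of the Scn1a 1b deletion line. There were 98 such genes, 98 listed in the table of the heterozygous round and 97 in that of the homozygous round, among 24391 and 24015 genes listed. With at least 1 CPM (counts scaled to a fixed library total) in at least 1 library, 83 genes were kept in the heterozygous round and 80 in the homozygous round. All 80 were among the 83, and 15 were kept in neither round.

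The mice carried a Cas9-made deletion of the 1b interval, a non-coding regulatory region of Scn1a, which encodes the sodium channel NaV1.1. They came from 1 line on a C57BL/6N background, kept by crossing male carriers with WT females. The paper obtained 1b-/- offspring from pairings of 1b+/- females with 1b+/- males. Hippocampus of 1 hemisphere was taken at postnatal day 32, and the labels call the animals adult. The homozygous round held 2 WT mice (both female) and 2 1b-/- mice (replicate 1 male, replicate 2 female). The heterozygous round held 3 WT mice (all male) and 4 1b+/- mice (replicates 1 to 3 male, replicate 4 female). A share of 1b-/- pups died before weaning, so the 1b-/- mice sampled were survivors, and spontaneous seizures were seen in that genotype. WT mice sequenced in the same round served as the controls of each mutant genotype.

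A potassium channel is built from pore subunits around a central path that lets potassium through and keeps sodium out. Voltage-gated pore subunits (Kcna, Kcnb, Kcnc, Kcnd, Kcnq, Kcnh) open when the membrane depolarises, and the modulatory subunits (Kcnf, Kcng, Kcns, Kcnv) join some of them without forming a working channel alone. Kcnma, Kcnn, Kcnt and Kcnu channels respond to calcium, sodium or internal pH, Kcnj subunits are inward rectifiers that hold the resting potential, and Kcnk subunits form leak channels with a pair of pore loops each. Kcnab, Kcne, Kcnip and Kcnmb proteins are accessory subunits that change the gating or traffic of the pore.

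The sequences that the pore genes of this set have in common are the codons of the selectivity filter. They are shown here for some of the called pore genes, without Kcng2 and Kcnn2, so that a reader can see what these share and where they part. The search took the longest coding sequence of each gene (GENCODE M1 transcripts, mm9) and looked in frame for codons of threonine or serine, then threonine, valine, isoleucine or leucine, then glycine, then tyrosine or phenylalanine, then glycine. All 56 kept pore genes outside Kcnk had 1 match. Of 10 kept Kcnk genes, 8 had 2 matches and 2 had 1, and the 13 kept accessory genes had 0. Each line gives 3 codons on each side in lower case and the 5 codons of the filter in capitals.
Kcnh4: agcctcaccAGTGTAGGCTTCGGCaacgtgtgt
Kcnt1: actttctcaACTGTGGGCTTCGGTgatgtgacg
Kcnj2: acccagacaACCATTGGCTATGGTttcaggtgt
Kcnj10: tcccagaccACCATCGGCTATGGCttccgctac
Kcnk12, first pore: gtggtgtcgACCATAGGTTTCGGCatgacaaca
Kcnk12, second pore: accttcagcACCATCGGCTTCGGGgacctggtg
Counted from the first base of the coding sequence, the filter codons start at base 1315 in Kcnh4, 883 in Kcnt1, 424 in Kcnj2 and 565 in Kcnj10, and at 385 and 766 in Kcnk12. Of the 15 bases in capitals, 7 were the same in all 6 windows. The most alike pair of the windows shown was Kcnj2 and Kcnj10, with 25 of 33 bases equal. Kinship of this kind bears on counting, since a read that fits more than 1 gene cannot be placed. Among 80 kept genes with a protein-coding transcript, 15 shared a stretch of 50 bases (the read length of the homozygous round) with another Kcn gene, and the largest share of a gene's 50-base stretches was 2.67%, in Kcna5 with Kcna6.

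Libraries held between 20667122 and 36145161 counts. Scn1a itself stood at 131 and 170 CPM in the WT mice and 25.9 and 16.2 CPM in the 1b-/- mice of the homozygous round (log2 fold change -2.83, SE 0.27, adjusted p = 0.0211, edgeR's quasi-likelihood test). In the heterozygous round it stood at 176, 116 and 127 CPM in WT and 93.7, 85.7, 99.3 and 123 CPM in 1b+/- (-0.47, SE 0.15, adjusted p = 0.303). The WT libraries of the homozygous round stood apart from all other libraries in genes of neighbouring brain regions. The summed level of 11 striatum genes was 8375 and 3537 CPM there, 349 and 404 CPM in 1b-/-, and between 337 and 546 CPM in the 7 libraries of the heterozygous round. The sum of 4 cholinergic neuron genes was 90.2 and 39.7 CPM against 1.71 to 11.5 CPM in the other libraries, with Lhx8 at 9.71 and 2.58 CPM against 0.03 and 0.06 CPM in 1b-/-. The sum of 5 genes of hippocampal neurons went the other way, at 5384 and 7716 CPM in those WT libraries and 11164 and 10865 CPM in 1b-/-. For 7 dentate granule cell genes it was 148 and 113 CPM against 250 and 307 CPM. For 5 CA1 pyramidal cell genes it was 313 and 344 CPM against 888 and 579 CPM. Of the 7 dentate genes 3 were called higher in 1b-/- and 1, Pdzd2, had a negative value. C1ql2 among them stood at 1.82 and 1.75 CPM in WT and 70.7 and 76.7 CPM in 1b-/-. Of the 11 striatum genes 9 were called lower in 1b-/-, and of the 4 cholinergic genes 4. The sum of 6 neocortex genes was 92.1 CPM in 1b-/- replicate 2 and between 229 and 366 CPM in the other 10 libraries, but single genes differed. In those WT libraries Tshz2 stood at 21.4 and 28.0 CPM and Lamp5 at 169 and 188 CPM. In 1b-/- Tshz2 stood at 194 and 16.7 CPM and Lamp5 at 85.7 and 31.5 CPM. In the heterozygous round Tshz2 ranged from 94.2 to 179 CPM and Lamp5 from 36.7 to 44.6 CPM. Of the 6 genes 5 had negative values in 1b-/- and 3 were called lower. In the heterozygous round 1 library stood apart in the 6 thalamus genes, whose sum was 663 CPM in WT replicate 1, 348 and 479 CPM in 1b+/- replicates 3 and 4, and 194 to 217 CPM in the other 4 libraries. Every 1b-/- value below is read against these 2 WT libraries, and the part of the other tissue in it was not tested. In bulk tissue, fewer cells of a type and less RNA per cell cannot be told apart.

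**Figure D1:**
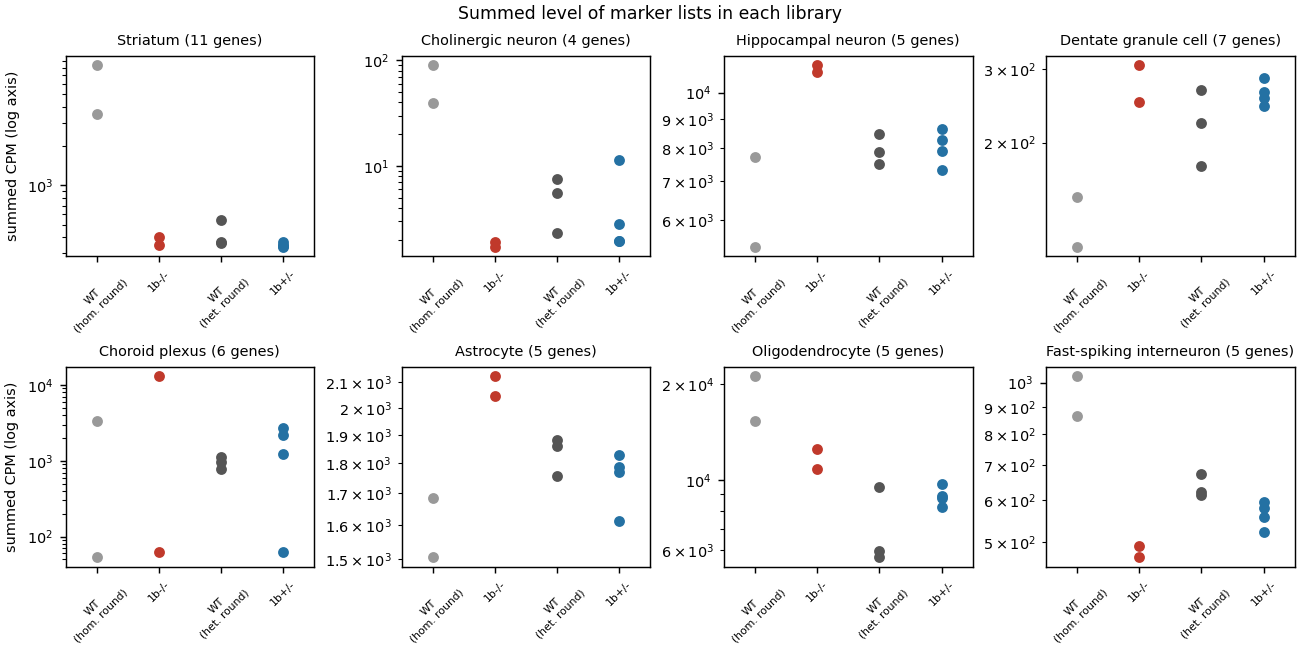
Summed CPM of 8 marker lists in each of the 11 libraries, on log axes, with 1 point a library and 1 column a group. The 2 WT libraries of the homozygous round lie far above all others for striatum genes (3537 and 8375 CPM) and below all 1b-/- libraries for hippocampal neuron genes. Tac1 is in both the striatum and the fast-spiking list.

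In 1b-/- hippocampus 10 of 80 Kcn genes were called (12.5%), against 3.58% of all 14838 genes tested, at an adjusted p under 0.05. DESeq2 called 24 (30%), against 14.4% of all genes, and the likelihood ratio test 19 (23.8%), against 12.3%. Kcnh4, Kcnt1, Kcnj2, Kcnab3 and Kcnj10 fell, while Kcng2, Kcnk12, Kcnab2 and Kcnn2 were among those that rose. Each direction held 6.25% of the members, against 1.52% of all genes for lower and 2.06% for higher. Groups did not overlap for 42 of 80 members (52.5%), against 59.7% of all genes. The median log2 fold change over the 80 members was -0.21, with 51 below 0 and 29 above, while the median over all genes tested was -0.0013.

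The calls depended on both WT libraries, the sizes of the changes less so. Without WT replicate 1, which leaves 1 WT sample assumed to vary like the other group, 0 of the 10 were called by the quasi-likelihood test and 0 genes of the whole table passed. The 9 called genes named here kept their sign and 80.4% to 115.9% of their log2 fold change there, with unadjusted p between 0.000477 and 0.00567 and adjusted p between 0.101 and 0.116. Without WT replicate 2, 6 members were called (7.5%, against 1.31% of all genes), 3 of them among the 10, and the 9 kept 87.0% to 123.8% of their log2 fold change. A look at the WT mice of the heterozygous round, made after the values were seen, puts their mean nearer to the 1b-/- mean than to the WT mean of the homozygous round for 9 of the 10 called genes, against 47 of the 80 members kept in both rounds. The 10 were called with those same WT libraries of the homozygous round, so the 2 counts do not stand on equal terms. The share over all genes was not computed. Read length differed between the rounds, so round and genotype cannot be told apart in that look.

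**Figure D2:**
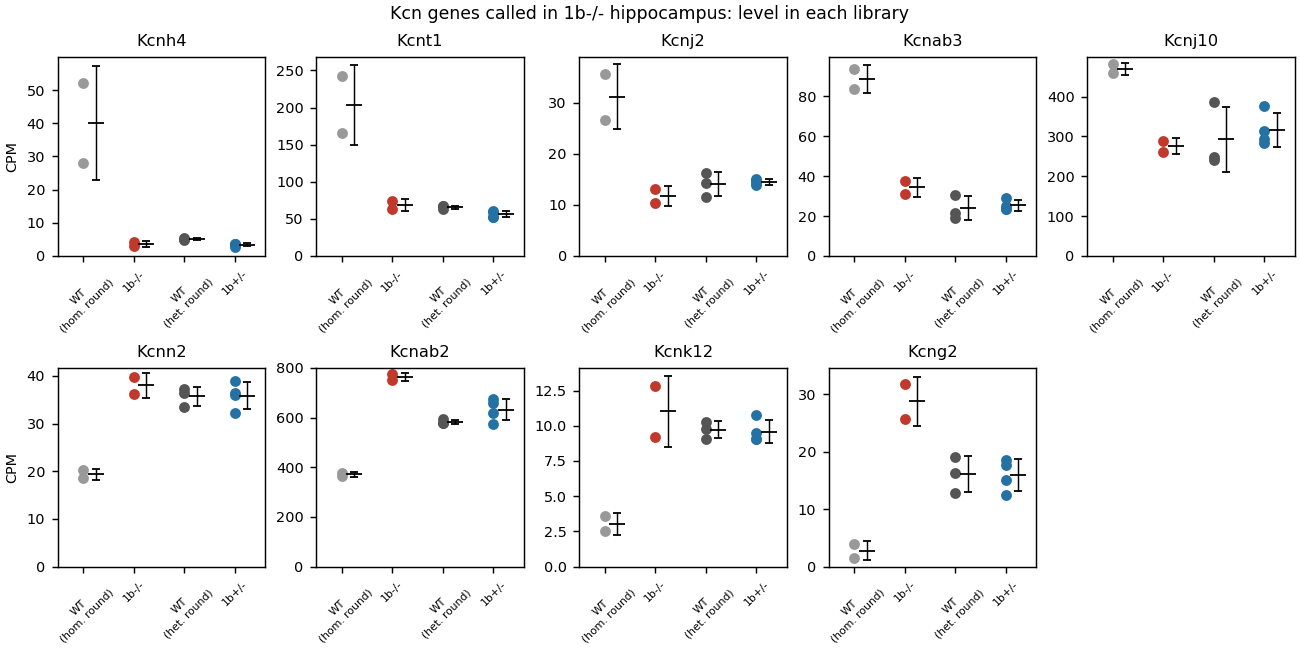
CPM (scaled over all 11 libraries) of 9 Kcn genes called in 1b-/- hippocampus, by group, with 1 point a library and the mean ± SD beside it. In all 9 panels the WT mean of the heterozygous round lies nearer to the 1b-/- mean than to the WT mean of the homozygous round. These genes were called with those same WT libraries of the homozygous round.

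Among voltage-gated pore genes, 27 of 30 were kept in the homozygous round, and Kcnh4 was among those called. Kcnh4 encodes a subunit of the ether-a-go-go-like channels (chromosome 11, 100601690 to 100621256, minus strand, mm9). It stood at 52.2 and 28.0 CPM in WT and at 4.25 and 3.08 CPM in 1b-/-. The WT mice of the heterozygous round had 4.83, 5.52 and 5.21 CPM, a little above both 1b-/- values and far below both WT values of the homozygous round. Kcnh4 fell by 3.44 on the log2 scale (SE 0.37, adjusted p = 0.0238), to a fold of 0.0919. The other 7 Kcnh genes had log2 fold changes between -1.38 and -0.0011, and 0 of them passed the test. Kcnh5 (-1.38, SE 0.38, adjusted p = 0.105) and Kcnh3 (-0.57, SE 0.16, adjusted p = 0.113) came nearest.

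Kcnc1, Kcnc2 and Kcnc4, of the fast delayed rectifiers that let cells fire at high rates, had log2 fold changes of 0.09, 0.27 and 0.50, and none of them passed.

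The Kcna genes encode the low-threshold axonal channels. None of the 6 kept was called in 1b-/-, and 5 of the 6 had negative values. Kcna5 stood at 12.6 and 8.81 CPM in WT and 2.97 and 1.04 CPM in 1b-/- (-2.41, SE 0.53, adjusted p = 0.0729). Kcna4 gave -0.77 (SE 0.20, adjusted p = 0.0964), Kcna2 -0.60 (SE 0.20, adjusted p = 0.139) and Kcna1 -0.40 (SE 0.13, adjusted p = 0.136). Kcna5, Kcna1 and Kcna6 follow each other on chromosome 6 with gaps of 100.9 and 62.5 kb, and their values in 1b-/- ran from -2.41 to -0.31.

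Kcnb2, a delayed rectifier, gave 0.35 (SE 0.41). Among the A-type genes Kcnd3 stood at 42.6 and 59.99 CPM in WT and 88.3 and 82.7 CPM in 1b-/- (0.75, SE 0.19, adjusted p = 0.0917), while Kcnd2 gave -0.40 (SE 0.15, adjusted p = 0.178) and Kcnd1 0.16. Of the Kcnq genes, which carry the M-current, Kcnq3 and Kcnq5 gave -0.06 each.

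Of 9 modulatory genes kept, 1 rose and none fell. Kcng2 stood at 1.55 and 3.92 CPM in WT and at 25.8 and 31.8 CPM in 1b-/-. The WT libraries of the heterozygous round had 12.8, 16.3 and 19.1 CPM, between both groups. Kcng2 rose by 3.41 on the log2 scale (SE 0.45, adjusted p = 0.0307), a fold of 10.6. Its annotated exon in mm9 is only 0.705 kb long and holds coding sequence alone. Kcnv1, a silent partner of Kcnb subunits, stood at 60.8 and 94.2 CPM in WT and 37.2 and 32.7 CPM in 1b-/- (-1.14, SE 0.23, adjusted p = 0.065). Kcng1 gave 0.53 (SE 0.22, adjusted p = 0.1995), Kcns2 -0.42 (SE 0.15, adjusted p = 0.168) and Kcnf1 -0.53 (SE 0.41, adjusted p = 0.452).

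Of 7 ion-activated genes kept, 1 fell and 1 rose. Kcnt1 encodes Slack, a sodium-activated channel (chromosome 2, 25719315 to 25773793). It stood at 242 and 165 CPM in WT and 74.0 and 63.1 CPM in 1b-/-. The WT mice of the heterozygous round had 63.3, 66.8 and 67.2 CPM, between both 1b-/- values. Kcnt1 fell by 1.56 on the log2 scale (SE 0.22, adjusted p = 0.0333), and against the WT mice of the heterozygous round its value turned to 0.06 (adjusted p = 0.744). Kcnt2, its close relative, gave -0.06 (SE 0.36).

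Kcnn2, a small-conductance calcium-activated channel of the afterhyperpolarisation, stood at 18.5 and 20.2 CPM in WT and 36.2 and 39.8 CPM in 1b-/-. It rose by 0.98 on the log2 scale (SE 0.14, adjusted p = 0.0336). The 7 libraries of the heterozygous round, from 32.2 to 38.9 CPM, lay with 1b-/-. Kcnn1 gave 0.19 (SE 0.18), Kcnn3 -0.46 (SE 0.20, adjusted p = 0.215) and Kcnma1, the large-conductance channel, 0.21 (SE 0.24).

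Of 13 inward rectifier genes kept, 2 fell and none rose. Kcnj2, a strong inward rectifier (chromosome 11, 110927478 to 110938135), stood at 35.7 and 26.6 CPM in WT and 13.04 and 10.3 CPM in 1b-/-. It fell by 1.41 on the log2 scale (SE 0.22, adjusted p = 0.0412). WT mice of the heterozygous round had 14.2, 16.3 and 11.6 CPM, so that 1 of the 2 1b-/- values lay inside the range of that round. Kcnj10 encodes the main potassium channel of astrocytes (chromosome 1, 174271341 to 174304216). It stood at 459 and 481 CPM in WT and 289 and 261 CPM in 1b-/-, and fell by 0.76 on the log2 scale (SE 0.13, adjusted p = 0.0494). WT mice of the heterozygous round had 387, 241 and 249 CPM, and both 1b-/- values lay inside the range of that round. Against those WT mice Kcnj10 gave -0.09 (adjusted p = 0.720). The call was lost with filterByExpr or without any 1 library. It was also lost with a sex term, which fits 1b-/- replicate 1, the only male of that round, alone. The log2 fold change stayed between -0.83 and -0.70 within the homozygous round. The 5 other astrocyte genes had values of 0.11 (Aqp4), 0.11 (Gja1), 0.01 (Slc1a3), -0.25 (Aldh1l1) and 1.86 (Gfap, SE 0.32, adjusted p = 0.0504). Gfap, which rises in reactive astrocytes, stood at 202 and 156 CPM in WT and 464 and 829 CPM in 1b-/-. The libraries of the heterozygous round ranged from 309 to 373 CPM for Gfap, between both groups. The sum of 5 oligodendrocyte genes was 21196 and 15325 CPM in WT and 10796 and 12461 CPM in 1b-/-, and its part in the Kcnj10 value was not tested.

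The neighbours of these genes on the chromosome did not pass the test. Kcnj9 ends 11.9 kb from Kcnj10 and gave -0.37 (SE 0.39, adjusted p = 0.585). Kcnj16 ends 38.2 kb from Kcnj2 and gave -0.61 (SE 0.35, adjusted p = 0.322). Of the G protein-gated subunits, Kcnj6 stood at 6.21 and 17.9 CPM in WT and 37.3 and 44.4 CPM in 1b-/- (1.78, SE 0.48, adjusted p = 0.103), and Kcnj3 gave 1.08 (SE 0.41, adjusted p = 0.182). Kcnj11, the pore of the ATP-sensitive channel, gave 0.01 (SE 0.13). Kcnj4 gave -0.74 (SE 0.25, adjusted p = 0.147).

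Of 10 Kcnk genes kept, 1 rose and none fell. Kcnk12 stood at 3.59 and 2.49 CPM in WT and 12.8 and 9.23 CPM in 1b-/- (chromosome 17, 88145177 to 88197334, minus strand). It rose by 1.86 on the log2 scale (SE 0.30, adjusted p = 0.0429), a fold of 3.63. The 7 libraries of the heterozygous round had 9.05 to 10.7 CPM. Kcnk2, a mechanically and lipid-gated leak channel, stood at 138 and 93.8 CPM in WT and 52.3 and 41.6 CPM in 1b-/- and just missed the threshold (-1.30, SE 0.23, adjusted p = 0.0515). Kcnk13 gave -0.83 (SE 0.28, adjusted p = 0.148), Kcnk4 0.78 (SE 0.38, adjusted p = 0.262) and Kcnk1 -0.34 (SE 0.15, adjusted p = 0.227).

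Of 12 accessory genes kept, 1 fell and 1 rose, both of them beta subunits of Kcna channels. Kcnab2 stood at 365 and 379 CPM in WT and 775 and 753 CPM in 1b-/-, and rose by 1.05 on the log2 scale (SE 0.13, adjusted p = 0.0299). Kcnab3 stood at 83.7 and 93.6 CPM in WT and 37.8 and 30.9 CPM in 1b-/-, and fell by 1.36 (SE 0.15, adjusted p = 0.0251). Kcnab1 stood at 346 and 201 CPM in WT and 118 and 107 CPM in 1b-/- and was not called (-1.28, SE 0.27, adjusted p = 0.0702). Against the WT mice of the heterozygous round Kcnab3 turned to 0.52 (adjusted p = 0.029), since those mice had 30.7, 19.2 and 21.7 CPM, and Kcnab2 kept a positive value of 0.39 (adjusted p = 0.00108). Of all genes 52.2% passed in that comparison across rounds. In mm9, 5.13% of the exon bases of Kcnab3 and 2.24% of those of Kcnab2 overlap another annotated gene, and the strand setting of the counting is not given in the sources used here.

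The other accessory genes did not pass. Kcnip2, which binds Kcnd channels, gave -0.58 (SE 0.26, adjusted p = 0.231), and Kcnmb1, a beta subunit of the large-conductance channel, -0.45 (SE 0.48).

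Kcne2 and Kcnj13, both known from choroid plexus, varied widely between libraries of the same genotype. Kcne2 stood at 0.266 and 16.9 CPM in WT, 0.392 and 40.0 CPM in 1b-/-, and between 0.445 and 18.9 CPM in 1b+/-. Kcnj13 stood at 0.266 and 20.6 CPM in WT, 1.20 and 57.1 CPM in 1b-/-, and between 2.23 and 30.2 CPM in 1b+/-. The sum of 6 choroid plexus genes was 53.1 and 3364 CPM in the same WT libraries and 61.8 and 13232 CPM in 1b-/-, high in the same libraries. Of the exon bases of Kcnj13, 49.1% overlap Gigyf2.

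**Figure D3:**
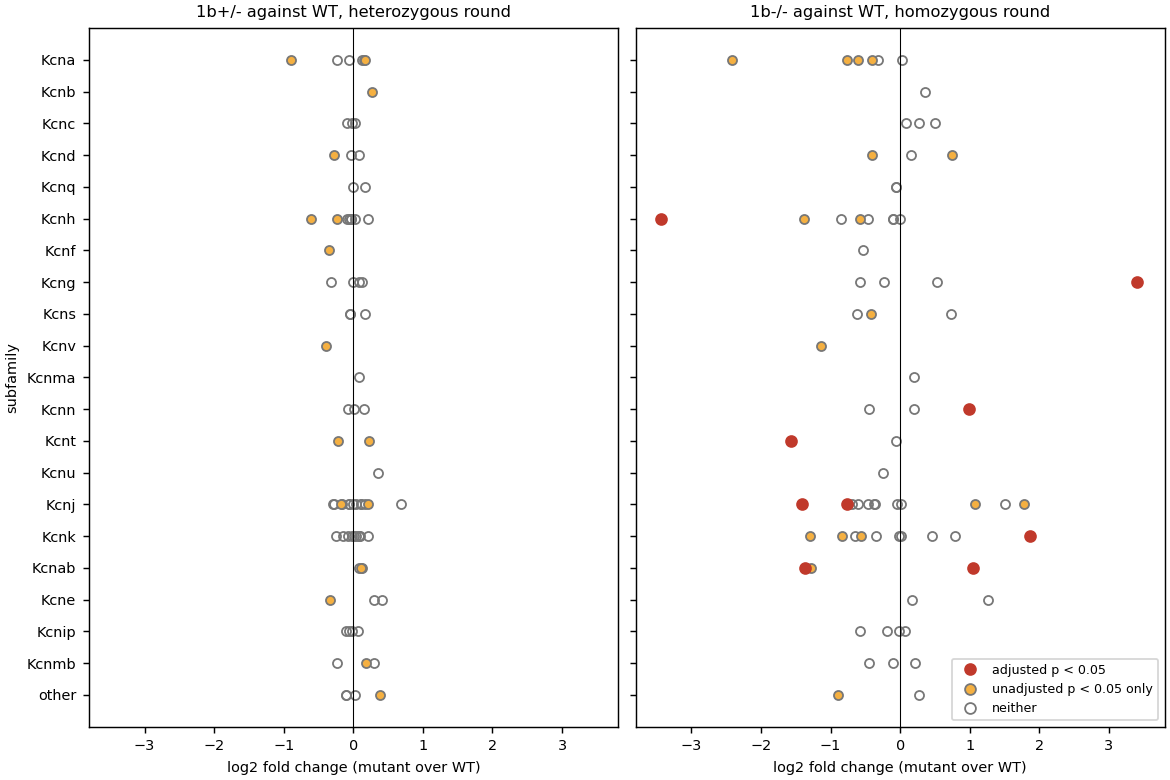
Log2 fold change of the kept Kcn genes reported here, 1 point a gene and 1 row a subfamily, for 1b+/- against WT (left, 79 genes) and 1b-/- against WT (right, 76 genes). All 9 filled red points are on the right, and the points on the left lie between -0.89 and 0.69.

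In 1b+/- hippocampus 0 of 83 Kcn genes were called by edgeR's quasi-likelihood test, as were 0% of all 14630 genes tested. Scn1a, the gene whose regulatory region was deleted, did not pass this test either (-0.47, adjusted p = 0.303). The paper reports Scn1a as significantly lower in these mice, from its own edgeR fit. A lack of calls by this test therefore does not show a lack of change. At an unadjusted p under 0.05 there were 17 of 83 Kcn genes (20.5%), 9 with negative and 8 with positive values, against 11.3% of all genes. Groups did not overlap for 9 of 82 members (11%), against 10.9% of all genes. The median log2 fold change was 0.01. By the likelihood ratio test 5 members passed (6.02%), all lower, against 1.31% of all genes, and by DESeq2 also 5, against 1.67%. Without WT replicate 1 of that round, the library with the most thalamus signal, 7 passed (8.43%), 5 lower and 2 higher, against 2.89% of all genes. Kcnj10 stood at 387 CPM in that library, 314 and 377 CPM in 1b+/- replicates 3 and 4 and 241 to 292 CPM in the other 4, so that its 3 highest libraries were the 3 with the highest thalamus sums. Kcnab3 stood at 30.7 CPM in that library and 29.1 CPM in 1b+/- replicate 4, with 19.2 to 24.9 CPM in the other 5. The part of thalamus tissue in these values was not tested.

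The 5 genes that passed under DESeq2 and the likelihood ratio test were Kcna5, Kcnd3, Kcnf1, Kcnh4 and Kcnv1. Kcna5 stood at 3.27, 5.60 and 4.26 CPM in WT and 1.94, 2.90, 2.41 and 2.15 CPM in 1b+/- (-0.89, SE 0.21, adjusted p = 0.175). Kcnd3 stood at 136, 149 and 157 CPM in WT and 112, 123, 127 and 127 CPM in 1b+/- (-0.27, SE 0.06, adjusted p = 0.165). In both genes each 1b+/- library was below each WT library. Kcnf1 stood at 126, 151 and 143 CPM in WT and 95.5, 117, 116 and 109 CPM in 1b+/- (-0.36, SE 0.08, adjusted p = 0.165), Kcnh4 at 4.83, 5.52 and 5.21 CPM and 3.64, 3.58, 2.74 and 3.69 CPM (-0.60, SE 0.14, adjusted p = 0.165). Kcnv1 stood at 58.1, 76.8 and 59.9 CPM in WT and 49.8, 51.8, 50.9 and 45.9 CPM in 1b+/- (-0.39, SE 0.09, adjusted p = 0.179). None of the 3 overlapped either, and 2 of the 5, Kcnf1 and Kcnv1, are modulatory subunits.

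Positive values in 1b+/- at an unadjusted p under 0.05 were small in the genes named here. Kcnq1ot1, a non-coding RNA transcribed antisense to Kcnq1, had 0.38 (SE 0.13), a value that is uncertain since the strand setting of the counting is not given, Kcnb2 0.28 (SE 0.11), Kcnt2 0.23, Kcnj11 0.21 (SE 0.08), Kcnmb4 0.18 (SE 0.07), Kcna1 0.17 (SE 0.06) and Kcnab1 0.11 (SE 0.04). The last of them stood at 131, 136 and 131 CPM in WT and 147, 140, 139 and 146 CPM in 1b+/-, which did not overlap. Of the exon bases of Kcnmb4, 31.5% overlap other annotated genes. Subfamilies with no member at that level were Kcnq, Kcng, Kcns, Kcnn, Kcnk, Kcnip, Kcnma and Kcnu, and their smallest p values belonged to Kcnq3 (0.17, SE 0.10), Kcng1 (-0.31, SE 0.14), Kcns3 (0.16, SE 0.15), Kcnn1 (0.16, SE 0.07), Kcnk4 (0.21, SE 0.10), Kcnip3 (0.07, SE 0.05), Kcnma1 (0.09, SE 0.05) and Kcnu1 (0.35, SE 0.18). Kcne1l gave -0.34 (SE 0.13) and came first among the Kcne genes.

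Taking genes with an unadjusted p under 0.05 and the same sign in both comparisons, 6 of 80 members were lower in both (7.5%), against 1.22% of all 14151 genes kept in both rounds, and 1 was higher in both (1.25%), against 0.827%. The 6 were Kcna5, Kcnh3, Kcnh4, Kcnj4, Kcnt1 and Kcnv1. The 2 comparisons share no library. For Kcnh3, a voltage-gated gene of forebrain neurons, 1b+/- mice had 76.3, 84.4, 76.0 and 75.3 CPM against 84.2, 98.9 and 91.3 CPM in WT (-0.23, SE 0.06). The highest 1b+/- library was just above the lowest WT library, so the groups overlapped. Kcnt1 gave -0.22 (SE 0.06) and Kcnj4, a strong inward rectifier, -0.18 (SE 0.07), small beside their values in 1b-/-. The striatum sum in the same round was highest in WT replicate 2, at 546 CPM, against 362 and 366 CPM in the other WT libraries and 337 to 366 CPM in 1b+/-, and its part in these values was not tested.

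When the change in 1b-/- was set against that in 1b+/- in 1 fit, 25 of 83 members differed (30.1%), 16 with a lower and 9 with a higher value in 1b-/-, against 27.3% of all 14905 genes. Kcnq1 was kept in this joint fit and Kcnmb4os2, absent from 1 of the tables, was not. All 10 genes called in 1b-/- were among the 25. The fitted changes had opposite signs in 17 of the 25 and the same sign with a larger size in 1b-/- in 8. The contrast spans both rounds, so it also holds any difference between their WT mice.

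Among the 25, the largest negative differences belonged to Kcnh4 (-2.85, SE 0.35, adjusted p = 0.000504), Kcnj2 (-1.46, SE 0.23, adjusted p = 0.00167), Kcnab3 (-1.45, SE 0.25, adjusted p = 0.00237), Kcnab1 (-1.39, SE 0.23, adjusted p = 0.00222), Kcnt1 (-1.35, SE 0.19, adjusted p = 0.00114) and Kcnk2 (-1.31, SE 0.22, adjusted p = 0.00225). The largest positive ones among the 25 belonged to Kcng2 (3.41, SE 0.42), Kcnk12 (1.87, SE 0.25), Kcnj6 (1.60, SE 0.41) and Kcnd3 (1.01, SE 0.17). Of the axonal genes, Kcna1 (-0.58), Kcna2 (-0.76) and Kcna4 (-0.91) had lower values in 1b-/- than in 1b+/-. Kcnd2 (-0.49), Kcnj10 (-0.89), Kcnk1 (-0.43), Kcnk13 (-0.87), Kcnv1 (-0.76) and Kcnq1ot1 (-1.29) were lower too. Kcng1 (0.84), Kcnab2 (0.92) and Kcnn2 (0.97) were higher.

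**Figure D4:**
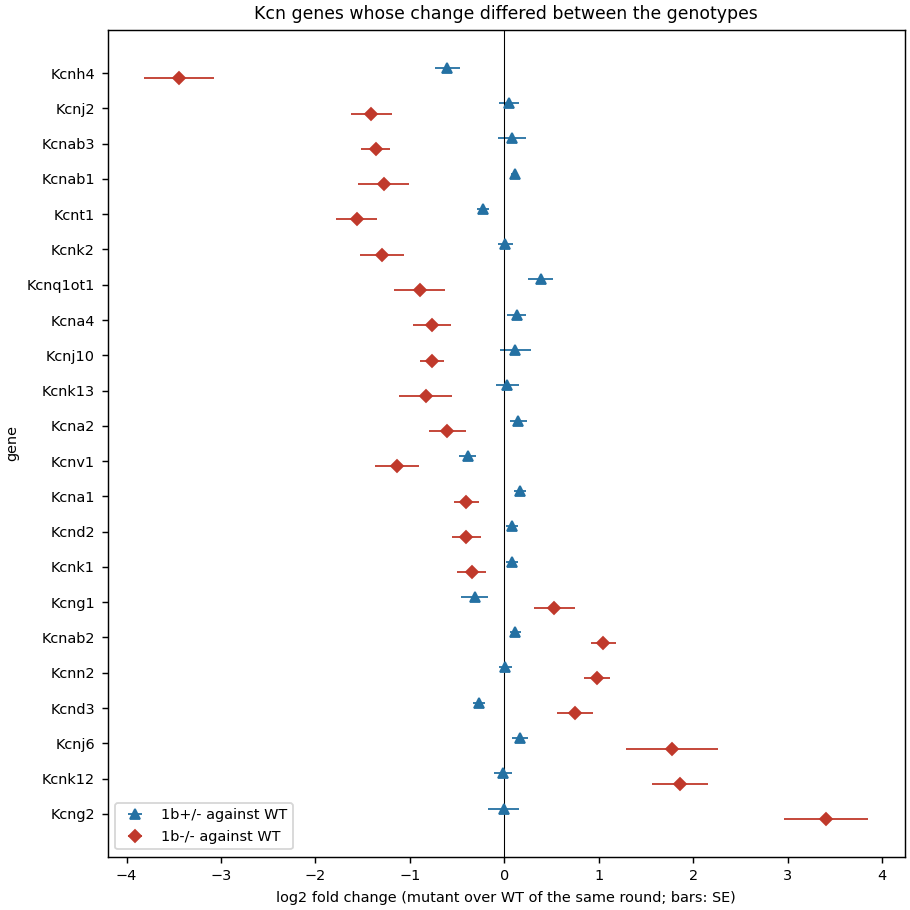
Log2 fold change with SE of 22 Kcn genes that differed between genotypes, for 1b+/- (triangles) and 1b-/- (diamonds), each against WT mice of the same round. Triangles lie between -0.60 and 0.38, and diamonds reach from -3.44 to 3.41.

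Levels between genes were compared per length, as CPM per kb of merged exons, for the 78 kept genes with a single annotated mm9 gene of the symbol. Of them 33 stood at 10 or more over the 11 libraries, 37 between 1 and 10, and 8 under 1. Over all libraries Kcnab2 had a mean of 107 CPM per kb, Kcna2 90.6, Kcnj10 61.1 and Kcnip2 52.6, but the order differed between groups. Among WT mice of the heterozygous round Kcnab2 (104 ± 1.53, SD, n = 3) and Kcna2 (97.6 ± 13.7) were above Kcnj10 (54.1 ± 15.2) and Kcnip2 (43.5 ± 7.66), and the spreads overlapped within each pair. Among WT mice of the homozygous round Kcnj10 (86.9 ± 2.88, SD, n = 2), Kcnip2 (86.2 ± 30.7) and Kcna2 (81.8 ± 13.7) were above Kcnab2 (66.6 ± 1.77), and of these 4 genes Kcnj10 and Kcnab2 were the pair whose mean ± SD did not overlap.

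Some classes had the same leading gene in all 4 groups, as Kcnk1 (40.5 CPM per kb over all libraries) among the Kcnk genes and Kcnj10 among the inward rectifiers, where Kcnj4 stood at 41.9. In the ion-activated class Kcnma1 (14.9 in WT of the homozygous round, 17.1 in 1b-/-, 32.7 in WT of the heterozygous round and 34.8 in 1b+/-) led in 3 groups, and Kcnt1 in WT of the homozygous round, at 27.1. Among modulatory genes Kcnf1 (22.7, 15.7, 29.2 and 22.8 in the same order) led in 3 groups, and Kcng2 (3.88, 40.9, 22.8 and 22.6) in 1b-/-. That lead rests on the exon lengths, 0.705 kb of coding sequence alone for Kcng2 and 4.787 kb for Kcnf1. By CPM, Kcnf1 (75.2) stood above Kcng2 (28.8) in 1b-/-. Within their subfamilies Kcnd2 (26.3), Kcnh3 (24.8), Kcnv1 (12.5), Kcnt1 (11.7), Kcns2 (8.28) and Kcnmb4 (5.30) were highest over all libraries and in each group. Kcnn3 (9.71) and Kcne2 (6.40) were highest over all libraries, but Kcnn2 was in 1b-/- and Kcne1l in WT of the homozygous round. Kcnrg (1.01) and Kcnu1 (0.889) had the lowest of these means. Kcnq5 stayed between 12.3 and 15.6 CPM per kb in all 11 libraries.

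The level of Kcnj3 differed more between rounds than between genotypes. It stood at 4.80 ± 2.89 CPM per kb in WT and 10.1 ± 0.93 in 1b-/- (SD, n = 2 each) in the homozygous round, and at 30.1 ± 0.83 in WT (n = 3) and 32.4 ± 2.29 in 1b+/- (n = 4) in the heterozygous round. Of the exon bases of Kcnj3, 31.1% overlap another annotated gene. The rounds differed in read length, pairing and animals, which cannot be told apart here.

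**Figure D5:**
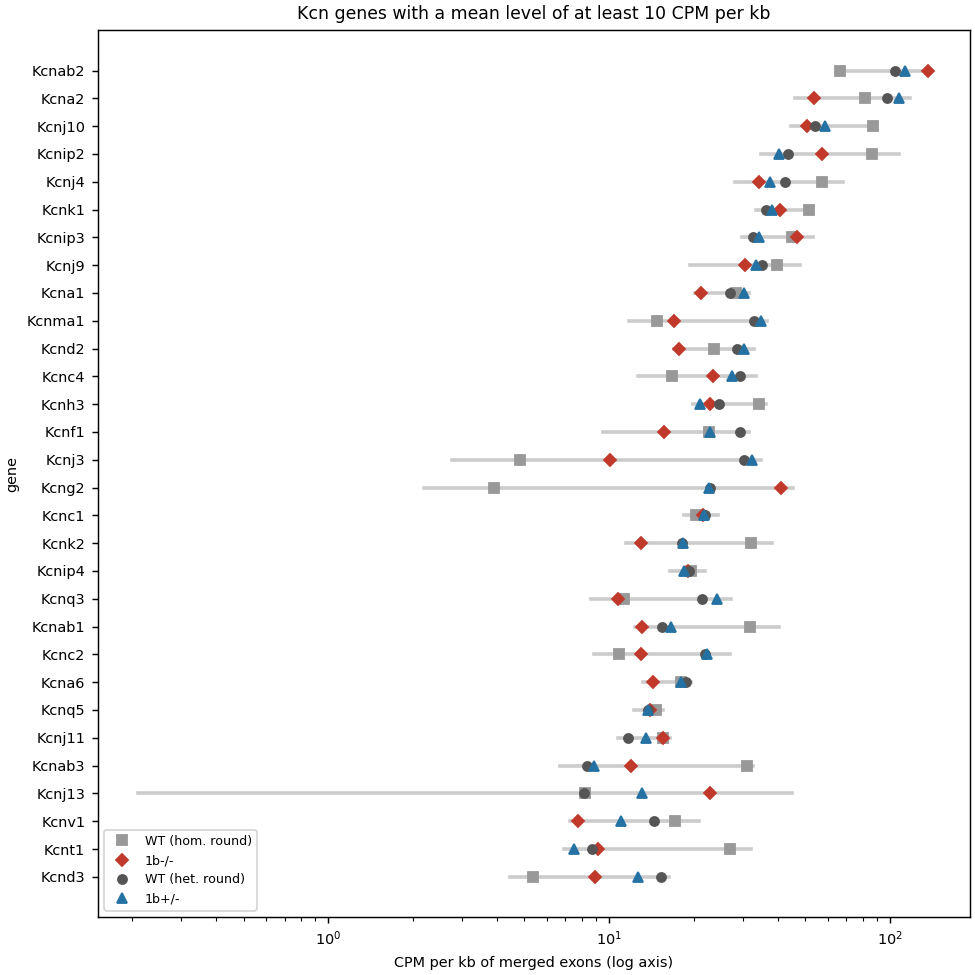
Mean CPM per kb of merged exons in each of the 4 groups (markers) and the range over all 11 libraries (grey line), on a log axis, for 30 of the Kcn genes with a mean of at least 10. Genes are ordered by their mean over all libraries, with Kcnab2 and Kcna2 first, and Kcnj3 and Kcng2 have wide lines.

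Of 23 partner genes outside Kcn, which anchor, traffic or gate these channels, 22 were kept. By edgeR's quasi-likelihood test 1 of the 22 was called in 1b-/-, near the 3.58% of all genes called there. In 1b+/- 0 were called, as were 0% of all genes, and 5 had an unadjusted p under 0.05, against 11.3% of all genes. Lgi1, a secreted protein that binds Adam22 near Kcna channels, stood at 103 and 112 CPM in WT and 168 and 178 CPM in 1b-/- and rose by 0.70 on the log2 scale (SE 0.12, adjusted p = 0.0494). All 7 libraries of the heterozygous round, with 179 to 200 CPM, were above both groups. Dpp10, an auxiliary subunit of Kcnd channels, had the smallest p in 1b+/-, at 150, 137 and 136 CPM in WT and 96.6, 105, 110 and 117 CPM in 1b+/- (-0.40, SE 0.07, adjusted p = 0.0777).

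The test of the difference called 10 of the 22 partners, against 27.3% of all genes. Dlg1 (-1.14), Akap5 (-0.98), Abcc9 (-0.98), Cntn2 (-0.88), Ank3 (-0.70), Dlg2 (-0.57) and Adam22 (-0.54) had lower values in 1b-/- than in 1b+/-, and Calm3 (0.75), Dpp6 (0.74) and Lgi1 (0.65) higher ones. Dpp6, the other auxiliary subunit of Kcnd channels, stood at 308 and 281 CPM in WT and 490 and 467 CPM in 1b-/- (0.71, SE 0.13, adjusted p = 0.0567).

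The 15 genes kept in neither round were Kcna7, Kcna10, Kcne1, Kcne3, Kcnj1, Kcnj15, Kcnk7, Kcnk15, Kcnk16, Kcnk18, Kcnmb3, Kcnmb4os1, Kcnn4, Kcnq1 and Kcnv2. Among them Kcnq1 had the most counts in a single library, at 34. Kcnj1 and Kcnk16 had 0 counts in all 11 libraries, which allows levels of up to 0.083 to 0.145 CPM per library (3 counts, counting error only). Kcne4, Kcnrg and Kcnmb4os2 were kept in the heterozygous round alone.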

How the data were processed

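The authors aligned reads to mm9 with STAR 2.7.2, counted them per gene with featureCounts (version and strand setting not given in the sources used here) and deposited raw counts, 1 table a round, with no normalization. Libraries were made with a stranded mRNA kit, with single-end 50-base reads in the homozygous and paired-end reads in the heterozygous round. Columns were matched to samples by their own names, since the labels name the other table. Symbols that a spreadsheet had turned into dates stayed in the fit of each round but not in joint fits.

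Genes that reached 1 CPM in any library were fitted in edgeR 4.0.16 (R 4.3.3) with TMM factors, estimateDisp, glmQLFit and glmQLFTest, genotype as the only term, and Benjamini-Hochberg adjustment over all genes at a threshold of 0.05. A called gene passed it. Each standard error (SE) was taken as the size of the log2 fold change divided by the root of its F statistic. The difference between genotypes used all 11 libraries. CPM values printed are TMM-scaled over all 11 libraries. Gene positions, exon lengths and coding sequences came from GENCODE M1 on mm9, where 92 of the 98 symbols had exactly 1 gene. DESeq2 1.42.0 was an alternative. The code was tested on simulated counts. Precision is limited by 2 to 4 mice a group.

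The members, gene lists, tests and alternatives were chosen with earlier results of these data known. Counts cover all kept members, but some genes are not reported here by name and are left out of the figures. Of the rest, genes were named where called in any test, with the smallest p of their subfamily in a comparison, with its highest level, or at an unadjusted p under 0.05 with the same sign in both comparisons, and other values named beside them were picked after they were seen. Of the partner list the called genes and the smallest p in each comparison were named.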

Additional observations from a re-analysis of the deposited data

Results flagged for a closer look

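The change in 1b-/- differed from that in 1b+/- for 22 of the Kcn genes reported here by a test of the difference itself, with values given as the log2 change in 1b-/- minus that in 1b+/-. Of all kept members 30.1% differed, near the 27.3% of all genes. Lower values were found for Kcnh4 (-2.85), Kcnj2 (-1.46), Kcnab3 (-1.45), Kcnab1 (-1.39), Kcnt1 (-1.35), Kcnk2 (-1.31), Kcnq1ot1 (-1.29), Kcna4 (-0.91), Kcnj10 (-0.89), Kcnk13 (-0.87), Kcna2 (-0.76), Kcnv1 (-0.76), Kcna1 (-0.58), Kcnd2 (-0.49) and Kcnk1 (-0.43). Higher values were found for Kcng2 (3.41), Kcnk12 (1.87), Kcnj6 (1.60), Kcnd3 (1.01), Kcnn2 (0.97), Kcnab2 (0.92) and Kcng1 (0.84). Each genotype was set against other WT mice, so the genotypes and the rounds cannot be told apart in these values.

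In 4 of the 43 sets of 4 1b+/- libraries looked at, 1 library stood far from the other 3, and chance gives about 1 in 20. Kcnh3 was at 84.4 CPM in replicate 2, with the others between 75.3 and 76.3 CPM. Kcnh4 was at 2.74 CPM in replicate 3, with the others between 3.58 and 3.69 CPM. Kcnmb4 was at 11.1 CPM in replicate 4, with the others between 11.9 and 12.1 CPM, and Kcnrg at 1.11 CPM in replicate 4, with the others between 0.925 and 0.943 CPM.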

How the results depend on the processing

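The count of Kcn genes called in 1b+/- was 0 under the quasi-likelihood test with any filter, scaling or covariate tried, 5 by the likelihood ratio test, 4 by that test with tagwise dispersions and 5 by DESeq2. Leaving out 1 library gave 0 to 7, with 7 without WT replicate 1 of the heterozygous round, and a median log2 fold change between -0.0153 and 0.0698. Of all genes 1.31%, 1.3% and 1.67% passed under these 3. In 1b-/- the 10 calls became 19 by the likelihood ratio test (23.8% of members, 12.3% of all genes), 21 with tagwise dispersions (26.2% and 10.6%), 24 by DESeq2 (30% and 14.4%) and 33 in 1 fit of all 11 libraries (39.8% and 37.2%), each holding all 10. Leaving out 1 library gave 0 to 12, with 0 without WT replicate 1, 6 without WT replicate 2 (3 shared with the 10), 12 without 1b-/- replicate 1 (7 shared) and 5 without 1b-/- replicate 2 (5 shared). Against the WT mice of the heterozygous round, an alternative chosen after seeing the data, 41 were called (49.4% of members, below the 52.2% of all genes). Of the 10, 4 were among them by name, but Kcnab3 was called there with the opposite sign (0.52). Kcnt1 (0.06) changed sign too and was not called there. The count for the difference between genotypes stayed between 17 (20.5%, against 19.2% of all genes) and 31 (37.3%, against 26.3%). The causes were not tested.

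Sex could not be adjusted for within a round. The only male of the homozygous round was 1b-/- replicate 1, and the only female of the heterozygous round was 1b+/- replicate 4. A sex term there fits that mouse alone, much like leaving it out. With sex as a covariate the sign turned for Kcng2 (0.0918) and Kcnk13 (-0.0053) in 1b+/-, and for Kcnb2 (-0.21), Kcnip3 (-0.14), Kcnj11 (-0.0736) and Kcnmb4 (-0.13) in 1b-/-. With upper-quartile factors it turned for Kcng2 in 1b+/- (0.0008) and Kcnj11 in 1b-/- (-0.0061). Leaving out 1 library turned the sign of 11 named genes in 1b+/-, none of them called. Their log2 fold changes ranged from -0.0483 to 0.31 for Kcnab3, -0.008 to 0.81 for Kcne2, -0.15 to 0.13 for Kcng2, -0.0003 to 0.37 for Kcnj10, -0.0729 to 0.17 for Kcnj2, -0.0753 to 0.0273 for Kcnk12, -0.0544 to 0.16 for Kcnk13, -0.045 to 0.11 for Kcnk2, -0.0368 to 0.0565 for Kcnn2, -0.199 to 0.0769 for Kcnrg and -0.0892 to 0.0372 for Kcns2. In 1b-/- 8 uncalled named genes turned, from -0.21 to 0.76 for Kcnb2, -0.45 to 1.29 for Kcne1l, -4.43 to 6.24 for Kcne2, -0.14 to 0.25 for Kcnip3, -0.0728 to 0.0887 for Kcnj11, -0.0614 to 0.54 for Kcnma1, -0.13 to 0.49 for Kcnmb4 and -0.37 to 0.19 for Kcnq3. Of 1242 values of named genes under alternatives, 1097 kept their direction and side of the threshold. No paired analysis was possible because the replicate numbers only name different mice. With 2 mice a group in the homozygous round, each of the 4 libraries decides calls.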
